A study of Mus musculus with 18 samples.

Results

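Endocannabinoid signalling rests on 2 lipid messengers, 2-arachidonoylglycerol and anandamide, and on the genes that sense, make and destroy them. The 7 genes described here were a fixed list of symbols, Cnr1, Dagla, Daglb, Mgll, Faah, Napepld and Abhd6, matched to the gene identifiers of the count table through the GENCODE mouse annotation. They were 7 of 53468 genes in that table, each symbol matched 1 gene, and the rule uses no expression value. The list was nevertheless chosen with earlier results of these data known. All 7 passed the filter on low counts in every comparison.

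The data were poly(A) RNA-seq profiles of mouse brain on postnatal day 25. Forebrain, midbrain and hindbrain were dissected from 3 wild-type mice and 3 Fmr1CRE knockin mice of the same litter, so each of the 6 groups (2 genotypes in 3 regions) held 3 libraries and each mouse gave 1 library per region. In the Fmr1CRE name, CRE stands for cis-regulatory element: the line carries, on a C57BL/6 background, a single conserved non-coding variant close to Fmr1, the X-linked gene whose silencing causes fragile X syndrome, and no Cre recombinase is involved. The variant matches one found in a cohort with X-linked intellectual disability, and the libraries asked whether it changed gene expression in the brain. The study made several independent lines and described the mutants as hemizygous; it speaks of Fmr1 levels in male brains, and neither the line nor the sex is in the labels of these libraries.

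Neurons release endocannabinoids from the postsynaptic side, on demand, in response to calcium and to Gq-coupled receptors such as the metabotropic glutamate receptor Grm5. The lipids cross the synapse backwards and act on the CB1 receptor, the product of Cnr1, which lowers transmitter release from the presynaptic terminal. CB1 is dense on cholecystokinin interneurons of the cortex and hippocampus, in the output nuclei of the basal ganglia and on the parallel fibres that contact Purkinje cells in the cerebellum. Diacylglycerol lipases alpha (Dagla) and beta (Daglb) make 2-arachidonoylglycerol, which monoacylglycerol lipase (Mgll) destroys at the terminal and Abhd6 destroys in the postsynaptic neuron. Napepld encodes a phospholipase that forms anandamide, and Faah the amide hydrolase that breaks it down.

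The libraries held between 22455512 and 28061185 counts, with a median of 25123193.5. Fmr1 itself was not called between genotypes by edgeR's quasi-likelihood test, with log2 fold changes of -0.0033 in forebrain (adjusted p = 0.996), 0.0056 in midbrain (0.995) and 0.15 in hindbrain (0.906), and since the non-coding variant need not change the amount of Fmr1 RNA these values do not check the genotype labels. Forebrain and hindbrain libraries followed their labels, and midbrain libraries carried markers of both neighbours. Mean log2 CPM (reads counted for a gene, scaled to a library of fixed size) over 10 forebrain markers ran from 4.84 to 5.31 in forebrain libraries and from -1.03 to -0.04 in hindbrain libraries, and over 12 hindbrain markers from 4.30 to 4.60 in hindbrain and from -2.98 to -1.55 in forebrain, where 1 of the 12 was at 0 in all 6 libraries. Midbrain libraries were highest for the 10 midbrain markers, at 2.16 to 3.34, but also carried forebrain markers at 3.97 to 4.68 and hindbrain markers at 0.91 to 2.10, and their cerebellar granule neuron genes overlapped those of hindbrain. How much of a midbrain value comes from neighbouring tissue was not tested. The forebrain libraries of the mice numbered 3 stood apart. Of 106 genes that differed by more than 2-fold, above 1 CPM, between the Fmr1CRE and wild-type mouse numbered 3 in both midbrain and hindbrain, 11 differed by more than 2-fold the same way in forebrain and 30 the opposite way, against 29 and 17 of 102 genes for the mice numbered 1 and 35 and 21 of 120 for those numbered 2. Whether the pair of forebrain samples was swapped or the animals simply differed there cannot be told apart, and the counts of called members and pathway genes that involve forebrain are also given without the pair.

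Sequence upstream of 3 of the genes shows how unlike their starts are. The RefSeq start windows of GRCm38.p6, 300 bases long, covered 6 of the 7 genes in 10 windows, and Dagla had no entry in the table. The median over 32851 windows was 7 CpG dinucleotides, whereas the first windows of Mgll, Faah, Napepld, Abhd6 and Daglb held 32, 16, 28, 24 and 11. The 3 Cnr1 windows held 40, 33 and 5, and the last of them, below the median, surrounds the start at 33926202 to which most Cnr1 reads were assigned. The stretches below are the parts of these windows upstream of the start, read 5′ to 3′ on the gene's strand, for the receptor's first and last windows at chr4:33924014-33924263 and chr4:33926130-33926201 (plus strand), for the main 2-arachidonoylglycerol lipase at chr6:88724162-88724411 (plus strand) and for the anandamide hydrolase at chr4:116017927-116018174 (minus strand). They are shown because these are the receptor and the breakdown genes of the 2 lipids. Capitals mark matches, on either strand, to the GC box GGGCGG or the E-box CACGTG.
Cnr1, first window: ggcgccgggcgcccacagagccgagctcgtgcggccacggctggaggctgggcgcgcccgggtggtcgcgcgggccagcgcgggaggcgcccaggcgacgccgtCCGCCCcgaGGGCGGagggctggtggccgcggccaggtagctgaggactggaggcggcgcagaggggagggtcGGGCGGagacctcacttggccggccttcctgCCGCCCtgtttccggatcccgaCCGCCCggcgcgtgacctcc
Cnr1, last window: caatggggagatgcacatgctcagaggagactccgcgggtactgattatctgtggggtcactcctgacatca
Mgll: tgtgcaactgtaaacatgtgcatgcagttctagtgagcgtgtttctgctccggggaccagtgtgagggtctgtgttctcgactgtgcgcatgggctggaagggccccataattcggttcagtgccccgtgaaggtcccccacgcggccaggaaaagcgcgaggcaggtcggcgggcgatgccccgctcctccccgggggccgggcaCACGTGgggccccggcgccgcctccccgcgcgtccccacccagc
Faah: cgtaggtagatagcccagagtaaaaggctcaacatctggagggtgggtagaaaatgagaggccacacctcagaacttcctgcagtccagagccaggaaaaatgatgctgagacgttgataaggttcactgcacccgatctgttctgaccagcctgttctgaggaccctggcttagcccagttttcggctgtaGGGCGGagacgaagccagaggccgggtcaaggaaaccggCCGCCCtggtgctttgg
The first Cnr1 stretch held 5 GC boxes and the last held none, the Faah stretch 2 and the Mgll stretch none but 1 E-box. No Cnr1 transcript to which reads were assigned starts in that first window. Of all whole windows, 35.7% held a GC box and 7.15% this E-box, so neither is rare. The stretches are shorter than a window, and the whole first Mgll window did hold 1 GC box. The other motifs searched on both strands, TGACGTCA (the cAMP response element, in 1.79% of windows), the shorter core TGACG (20.8%, which the full element contains), TATAAA (13.6%) and CCAAT (37.4%), had no match in these stretches. A match is a run of letters, and whether any factor binds there was not measured.

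Between regions, Dagla, Mgll, Faah and Daglb were lower in hindbrain than in the other 2 regions. Regional differences were common, with 51.7% of all genes tested called in forebrain against hindbrain and 49.1% in midbrain against hindbrain. Dagla, Mgll, Faah and Daglb were higher in forebrain than in hindbrain, by 3.32-fold, 2.86-fold, 2.06-fold and 1.39-fold. Dagla, Faah, Mgll, Daglb and Napepld were also higher in midbrain than in hindbrain, by 3.03-fold, 1.96-fold, 1.42-fold, 1.33-fold and 1.299-fold. Between forebrain and midbrain, Mgll was 2.02-fold higher in forebrain, while Cnr1 and Napepld were 1.28-fold and 1.32-fold higher in midbrain, both near the threshold. Abhd6 passed the test in none of the 3 comparisons.

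These calls came from edgeR on all 18 libraries, with p-values adjusted over all 20363 genes tested, and many genes of the brain differ between its regions. In forebrain against hindbrain 4 of the 7 genes were called, 57.1%, where 51.7% of all genes tested were called, 26.4% higher and 25.3% lower in forebrain. In midbrain against hindbrain it was 5 of 7, 71.4%, against 49.1% of all genes (25.1% higher and 24% lower in midbrain). In forebrain against midbrain 3 of 7 were called, 42.9%, against 19.3% of all genes, 9.38% higher and 9.96% lower in forebrain. Without the forebrain libraries numbered 3, 4 members were called in forebrain against hindbrain and 2 in forebrain against midbrain, of 9709 and 3986 genes called in all. The count of members is close to the background in the first comparison, and 7 genes are too few to read the excess in the others. With libraries scaled by total counts alone, the median over all genes moved from -0.01 to -0.15 on the log2 scale in forebrain against hindbrain, and the calls that were higher in forebrain fell from 51.1% to 38.9% of all calls there and from 48.5% to 32.2% against midbrain. The tests treat the regions of a mouse as independent, and since all mice came from 1 litter they measure only the spread between these animals. In bulk tissue, fewer cells of a type and less RNA per cell cannot be told apart.

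**Figure D1:**
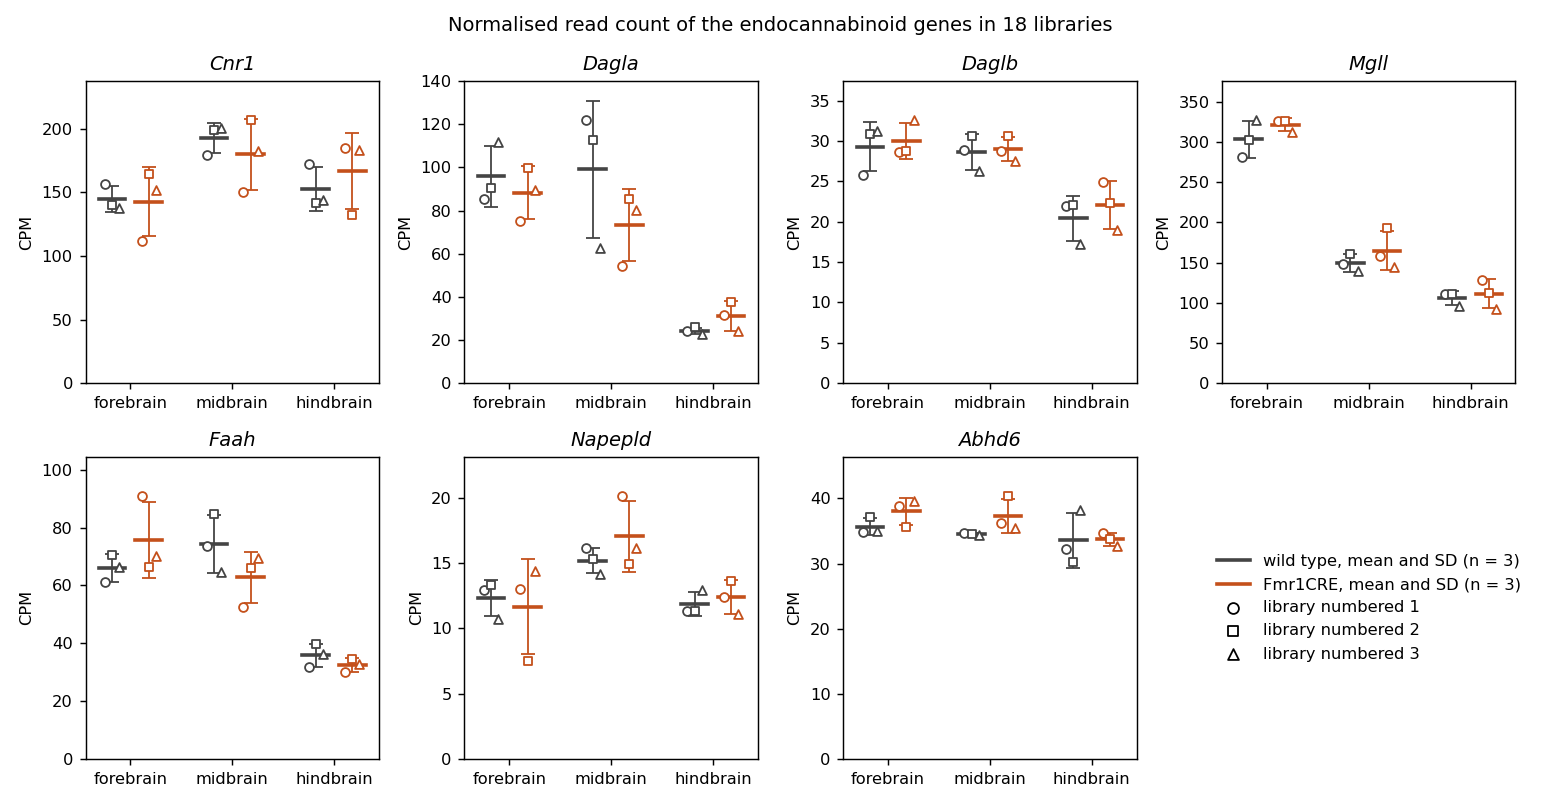
Level of each of the 7 genes in CPM (vertical axis, starting at 0) in every library, by region and genotype; each point is 1 library, its shape gives the replicate number, and lines give the mean and SD of 3. Mgll libraries of the 3 regions do not overlap, Dagla and Faah separate hindbrain from the other 2 regions, and Cnr1 and Abhd6 overlap across all 3.

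Cnr1 (ENSMUSG00000044288, GRCm38 chromosome 4, 33924593 to 33948831, plus strand) was expressed in all 3 regions at similar levels. In forebrain its CPM were 111.9, 164.0 and 151 in Fmr1CRE mice and 156, 140.0 and 138 in wild-type mice. In midbrain they were 150.3, 206 and 182 in Fmr1CRE and 179, 199 and 200.2 in wild type, and in hindbrain 185, 132 and 183 in Fmr1CRE and 172, 141 and 144 in wild type. The 3 regions overlapped, although in each of the 6 mice the forebrain library was below the midbrain library of the same animal. Cnr1 was lower in forebrain than in midbrain, with a log2 fold change of -0.35 ± 0.11 (SE) and an adjusted p of 0.0413 by edgeR. That call was lost in 8 of 15 alternative runs. Among them by edgeR were the mouse as a replicate block (adjusted p = 0.0509) and the fit without the forebrain libraries numbered 3 (-0.36, adjusted p = 0.0754). It was also lost without Fmr1CRE mouse 3 (0.0712) or wild-type mouse 1 (0.0747), 2 (0.142) or 3 (0.126). Forebrain differed from hindbrain by -0.16 (95% interval -0.40 to 0.08, adjusted p = 0.255 by edgeR), but with total counts as the only scaling this became -0.30 with an adjusted p of 0.0274, and without Fmr1CRE mouse 2 it was -0.28 (0.0287). Midbrain and hindbrain differed by 0.19 (-0.05 to 0.43), a difference that was called without Fmr1CRE mouse 1 (0.29, adjusted p = 0.0319).

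A marker mean was taken over Cck, Gad1, Gad2, Slc32a1, Cxcl14 and Slc17a8, 6 genes of cholecystokinin interneurons, cells in which CB1 is dense. These genes are not confined to those cells, so the mean does not measure their share. It ran from 5.78 to 6.57 in log2 CPM in forebrain, 6.42 to 6.68 in midbrain and 5.26 to 5.62 in hindbrain. None of the 6 was at 0. The 6 Purkinje cell genes ran from 4.32 to 5.14, 6.51 to 7.66 and 7.67 to 8.48, and the 6 cerebellar granule neuron genes from 1.63 to 3.79, 5.48 to 6.76 and 6.68 to 7.67 in the same order of regions. Their part in the Cnr1 levels was not tested.

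Among the synthetic enzymes, Dagla (ENSMUSG00000035735, chromosome 19, 10245265 to 10304877, minus strand), the lipase held to supply most 2-arachidonoylglycerol for synaptic signalling, showed the widest regional range of the 7 genes. Hindbrain libraries held 31.7, 37.8 and 24.2 CPM in Fmr1CRE mice and 24.1, 25.8 and 22.9 in wild type. Forebrain libraries held 75.3, 99.8 and 89.5 in Fmr1CRE and 85.2, 90.7 and 111.7 in wild type. All 6 forebrain libraries were thus far above all 6 hindbrain libraries. In midbrain the values spread widely, at 54.4, 85.3 and 80.3 in Fmr1CRE and 121.8, 112.9 and 62.9 in wild type, still without overlap with hindbrain. The log2 fold change was 1.73 ± 0.17 (SE, adjusted p = 3.12e-07) for forebrain against hindbrain and 1.60 ± 0.17 (1.28e-06) for midbrain against hindbrain by edgeR, while forebrain and midbrain differed by 0.13 (95% interval -0.21 to 0.47). The 2 lowest midbrain libraries for Dagla, Fmr1CRE replicate 1 and wild-type replicate 3, were also the 2 lowest for the forebrain markers, at 3.97 and 4.06 in mean log2 CPM. The part of dissection in the Dagla values was not tested.

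Daglb (ENSMUSG00000039206, chromosome 5, 143464584 to 143505942, plus strand), the related lipase best known from microglia and macrophages, varied less. It ran from 25.8 to 32.5 CPM in forebrain, 26.2 to 30.6 in midbrain and 17.2 to 24.97 in hindbrain, so that hindbrain lay below the other regions in all 6 mice. The log2 fold change was 0.47 ± 0.09 (SE, adjusted p = 0.000405) for forebrain against hindbrain and 0.41 ± 0.09 (0.00159) for midbrain against hindbrain by edgeR. The midbrain against hindbrain call was lost in 1 of 14 alternative runs. Exons of Rac1, on the opposite strand, cover 2309 bases or 24.1% of the exonic sequence of Daglb, and Rac1 had 126359 counts over the 18 libraries against 12187 for Daglb. The strand setting used in counting was not stated, so a share of Rac1 reads in the Daglb values was not tested. The 6 microglia genes ran from 4.95 to 5.29 in mean log2 CPM in forebrain, 4.43 to 4.72 in midbrain and 3.78 to 4.16 in hindbrain. Their part in the Daglb levels was not tested.

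Napepld (ENSMUSG00000044968, chromosome 5, 21662901 to 21701396, minus strand) had the lowest mean level per length of the 7 genes in each region. Its CPM were 13.02, 7.53 and 14.4 in Fmr1CRE forebrain and 12.95, 13.3 and 10.7 in wild-type forebrain. In midbrain they were 20.1, 14.95 and 16.1 in Fmr1CRE and 16.1, 15.3 and 14.2 in wild type, and in hindbrain 12.4, 13.7 and 11.1 in Fmr1CRE and 11.3, 11.4 and 12.96 in wild type. Midbrain was the highest region in every mouse. By edgeR, forebrain was lower than midbrain by a log2 fold change of -0.40 ± 0.13 (SE, adjusted p = 0.0457), and midbrain exceeded hindbrain by 0.38 ± 0.13 (0.0281), with no difference called between forebrain and hindbrain (-0.03, 95% interval -0.31 to 0.26). The first call held by edgeR without the forebrain libraries numbered 3 (-0.45, adjusted p = 0.0342) but was lost in 8 of 15 alternative runs. Among them were fits without the filter on low counts (0.0520) and without Fmr1CRE mouse 1 (0.127) or 2 (0.0541). Others left out wild-type mouse 1 (0.150), 2 (0.116) or 3 (0.111). The second call was lost in 7 of 14, among them with total counts as the only scaling (0.30, adjusted p = 0.0837 by edgeR). It was also lost without Fmr1CRE mouse 1 (0.110) or 3 (0.0550) or wild-type mouse 1 (0.122) or 2 (0.0910).

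Mgll (ENSMUSG00000033174, chromosome 6, 88724412 to 88828360, plus strand), the main lipase for 2-arachidonoylglycerol, was graded across the 3 regions with no overlap between any of them. Forebrain libraries held 326.0, 327 and 312 CPM in Fmr1CRE mice and 281, 302 and 327 in wild type. Midbrain libraries held 158, 192 and 144 in Fmr1CRE and 148, 161 and 139.8 in wild type, and hindbrain libraries 128, 113 and 92.5 in Fmr1CRE and 111, 112 and 95.8 in wild type. Every mouse showed the order forebrain, midbrain, hindbrain. The log2 fold changes were 1.01 ± 0.09 (SE, adjusted p = 1.87e-06) for forebrain against midbrain, 0.50 ± 0.09 (0.000256) for midbrain against hindbrain and 1.52 ± 0.09 (1.32e-09) for forebrain against hindbrain by edgeR. Without the forebrain libraries numbered 3 the forebrain against midbrain difference was 0.99 (adjusted p = 3.08e-05). Astrocytes also carry this enzyme. The 6 astrocyte genes ran from 7.74 to 8.31 in mean log2 CPM in forebrain, 8.18 to 8.36 in midbrain and 8.32 to 8.78 in hindbrain, neighbouring regions overlapping, and their part in the Mgll levels was not tested.

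Abhd6 (ENSMUSG00000025277, chromosome 14, 8002902 to 8056763, plus strand), the postsynaptic hydrolase of the same lipid, had the smallest share of its variation between regions of the 7 genes. Its CPM ran from 34.8 to 39.6 in forebrain, 34.3 to 40.4 in midbrain and 30.2 to 38.3 in hindbrain. The differences were 0.12 (95% interval -0.02 to 0.26) between forebrain and hindbrain, 0.06 (-0.08 to 0.20) between forebrain and midbrain and 0.06 (-0.08 to 0.20) between midbrain and hindbrain, and with total counts as the only scaling the first and the last turned to -0.01. Without wild-type mouse 3 the first was called (0.18, adjusted p = 0.0480). The upper end of the first interval is a change of 1.20-fold.

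Faah (ENSMUSG00000034171, chromosome 4, 115967145 to 116017926, minus strand) was about as high in forebrain as in midbrain and about 2-fold lower in hindbrain. Forebrain libraries held 90.9, 66.2 and 70.2 CPM in Fmr1CRE mice and 61.1, 70.7 and 66.4 in wild type, and midbrain libraries 52.7, 66.0 and 69.6 in Fmr1CRE and 73.6, 84.6 and 64.7 in wild type. Hindbrain libraries held 30.0, 34.6 and 32.7 in Fmr1CRE and 31.7, 39.6 and 36.2 in wild type. The highest hindbrain library was below the lowest of the other regions. The log2 fold change was 1.04 ± 0.10 (SE, adjusted p = 3.80e-07) for forebrain against hindbrain and 0.97 ± 0.10 (1.47e-06) for midbrain against hindbrain by edgeR, and forebrain and midbrain differed by 0.07 (95% interval -0.14 to 0.29).

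**Figure D2:**
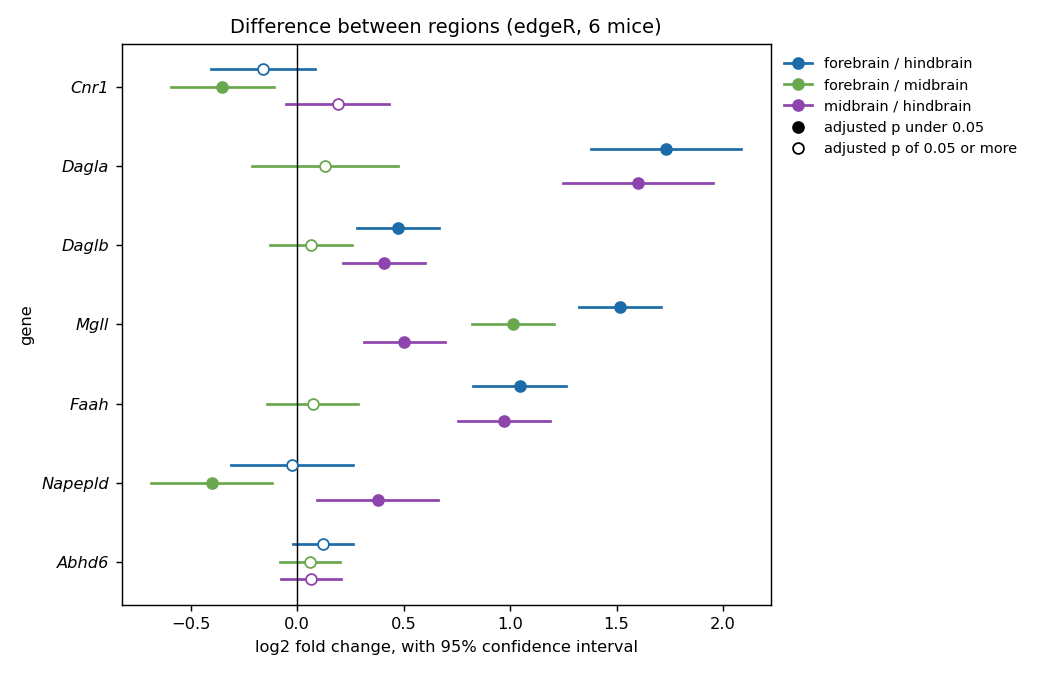
Log2 fold change between regions for each gene (horizontal axis) with its 95% interval from edgeR on 18 libraries; filled points have an adjusted p under 0.05. Dagla, Mgll and Faah lie farthest to the right against hindbrain, and Abhd6 stays near 0 in all 3 comparisons.

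Markers of other cells moved with region as well. The 6 oligodendrocyte genes ran in mean log2 CPM from 9.99 to 10.4 in forebrain, 10.6 to 10.8 in midbrain and 11.2 to 11.6 in hindbrain, without overlap, while choroid plexus genes ran from 3.13 to 4.04, 1.81 to 3.29 and 4.17 to 5.23. Immediate early genes ran from 3.17 to 5.71, 2.49 to 5.16 and 1.18 to 2.65, and blood genes from 5.73 to 7.23, 5.44 to 6.66 and 6.74 to 8.01 in forebrain, midbrain and hindbrain. None of these genes was at 0, and their part in the regional differences was not tested.

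Compared per length, as CPM per kb of effective transcript length, Mgll led in forebrain, and the receptor and Mgll overlapped at the top in the other regions. In forebrain the mean level per length was 77.6 ± 4.53 (SD, n = 6) for Mgll, followed by Cnr1 at 30.7 ± 3.92, Abhd6 at 20.2 ± 1.11, Faah at 19.4 ± 2.83, Dagla at 13.1 ± 1.78, Daglb at 6.14 ± 0.499 and Napepld at 3.56 ± 0.739. Abhd6 and Faah were the only neighbours in that order whose libraries overlapped. In midbrain Cnr1 (39.8 ± 4.40) and Mgll (39.1 ± 4.73) overlapped at the top, Abhd6 (19.7 ± 1.25), Faah (18.7 ± 2.89) and Dagla (12.3 ± 3.81) formed an overlapping run, and Daglb (5.96 ± 0.354) overlapped Napepld (4.78 ± 0.620). In hindbrain Cnr1 (34.1 ± 4.98) again overlapped Mgll (27.0 ± 3.23), Abhd6 (18.5 ± 1.49) and Faah (9.32 ± 0.938) stood alone, and Daglb (4.40 ± 0.567), Dagla (3.95 ± 0.830) and Napepld (3.60 ± 0.308) overlapped each other in turn. Dagla thus stood clear above Daglb in forebrain and midbrain and beside it in hindbrain. These levels count every read of a gene, coding or not. Coding transcripts took 56.2% of the reads of Faah, 87.7% of Dagla and 100% of Abhd6, so the order need not hold for coding RNA. The Daglb level may also hold Rac1 reads, which was not tested.

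**Figure D3:**
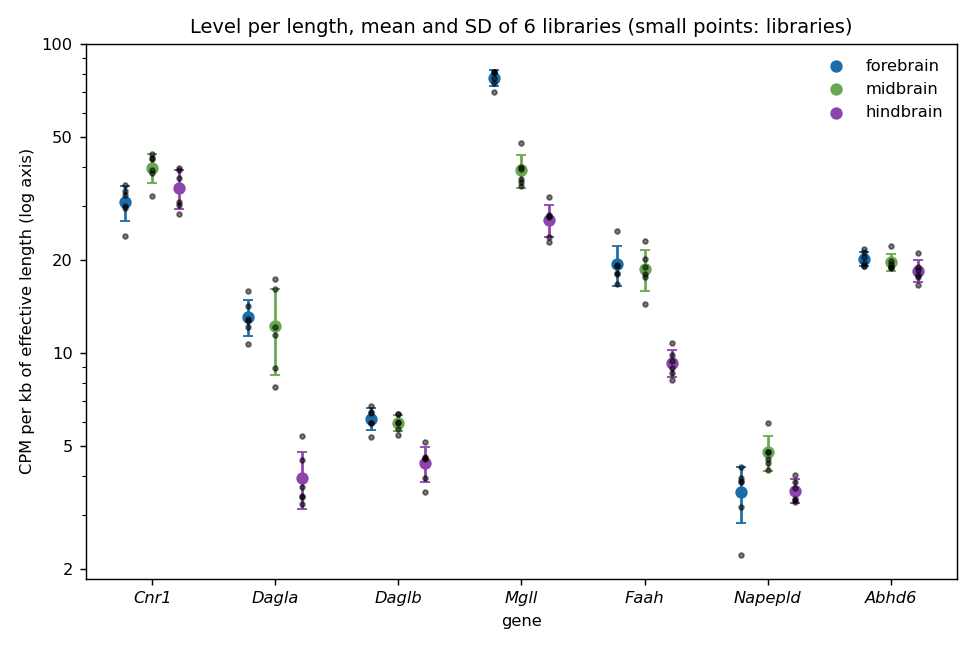
Level per length (CPM per kb of effective length, log axis) of the 7 genes in forebrain, midbrain and hindbrain; large points and bars are the mean and SD of 6 libraries, small points the libraries. Mgll falls from 77.6 to 27.0 between forebrain and hindbrain while Cnr1 stays between 30.7 and 39.8.

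Ratios of 2 genes within a library do not depend on how libraries are scaled, and 4 were compared between regions by an exact sign-flip permutation test over the 6 mice, two-sided, whose smallest p is 0.03125. Of the 12 tests, 9 gave that smallest p, which any difference with all 6 mice on 1 side reaches. Their Benjamini-Hochberg adjusted p of 0.0417 depends on how many of the 12 tests share that p. The ratios share genes and the comparisons of a ratio share libraries, so the 12 tests are not independent. The ratio of Dagla to Daglb was 2.39-fold higher in forebrain than in hindbrain (log2 difference 1.26 ± 0.226, SD) and 2.23-fold higher in midbrain than in hindbrain (1.16 ± 0.546). Forebrain and midbrain differed in it by 0.10 (exact p = 0.5625), with 3 mice on each side. The Daglb counts in this ratio may hold Rac1 reads, which was not tested. The ratio of Mgll to Abhd6, both of which destroy 2-arachidonoylglycerol, was 2.64-fold higher in forebrain than in hindbrain (1.40 ± 0.285), 1.94-fold higher in forebrain than in midbrain (0.96 ± 0.130) and 1.36-fold higher in midbrain than in hindbrain (0.44 ± 0.174).

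The count ratio of a synthesis gene to a breakdown gene, Dagla to Mgll, was highest in midbrain. Its log2 value averaged -1.77 in forebrain, -0.92 in midbrain and -1.98 in hindbrain, so midbrain exceeded forebrain by a log2 difference of 0.85 and hindbrain by 1.07 in 6 of 6 mice each. Forebrain exceeded hindbrain by 0.21 ± 0.286 (SD), in 4 of 6 mice (exact p = 0.1875, adjusted p = 0.205). For anandamide, the ratio of Napepld to Faah was highest in hindbrain: its log2 value averaged -2.58 in forebrain, -2.08 in midbrain and -1.49 in hindbrain. Hindbrain was above forebrain and midbrain in 6 of 6 mice, and the forebrain to midbrain difference of -0.50 had an adjusted p of 0.113 in the exact test. With any 1 mouse left out, no ratio can reach an exact p under 0.0625. These are ratios of RNA counts and do not measure enzyme or lipid amounts. The ratio of Dagla to Mgll also leaves out Daglb and Abhd6, which act on the same lipid.

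**Figure D4:**
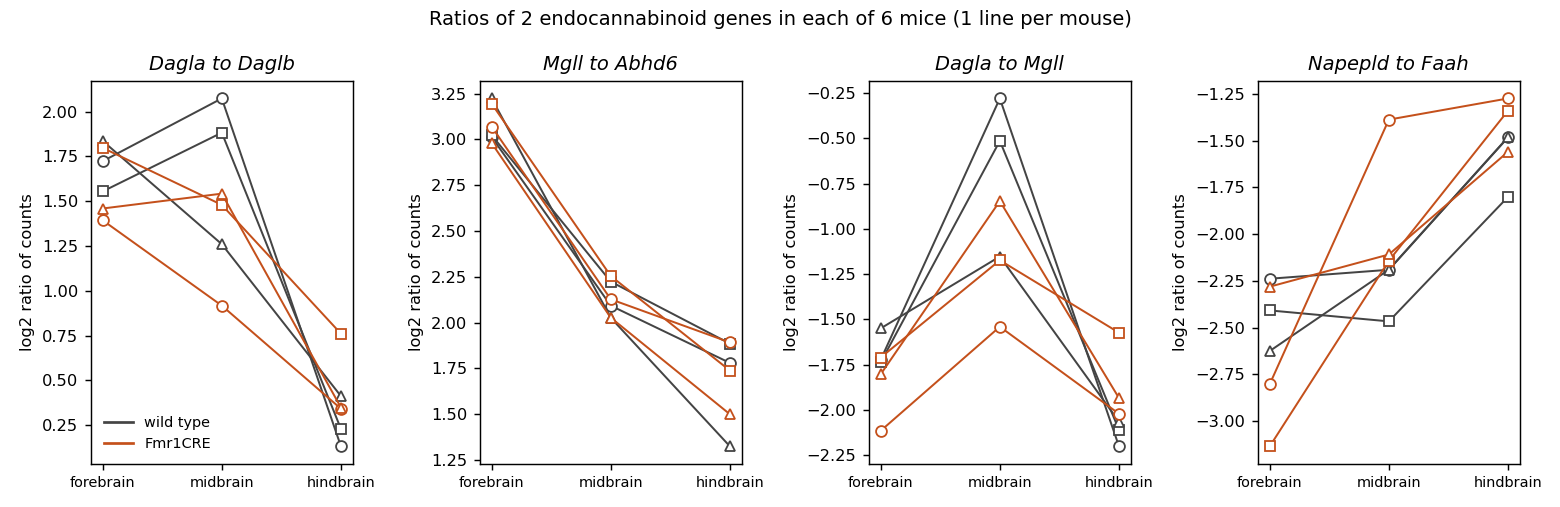
Log2 ratio of counts of 2 genes in the same library (vertical axis) in forebrain, midbrain and hindbrain; each line joins the 3 libraries of 1 mouse, coloured by genotype, with the replicate number as the symbol. In all 6 mice the ratio of Mgll to Abhd6 falls from forebrain to hindbrain and the ratio of Dagla to Mgll is highest in midbrain.

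Between genotypes none of the 7 genes was called in any region. By edgeR, 0% of 18467 genes were called in forebrain, 0.00543% (1 of 18400) in midbrain and 0% of 19112 in hindbrain, and with the regions of a mouse summed 0.00451% (1 of 22191). The interaction of genotype with region called 0% of 20363 genes. At an unadjusted p under 0.05 there were 1002, 1135 and 981 genes in forebrain, midbrain and hindbrain, 820 with the regions summed and 1535 for the interaction, and none of the 7 was among them. DESeq2, which called 31, 62, 60, 29 and 51 genes, called none of the 7 either.

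For the receptor no difference was called. The Cnr1 log2 fold change of Fmr1CRE over wild type was 0.0028 in forebrain (95% interval -0.33 to 0.33), -0.10 in midbrain (-0.40 to 0.19) and 0.09 in hindbrain (-0.29 to 0.48). With the regions of a mouse summed it was 0.00017 (-0.16 to 0.16), an interval that reaches from 0.895-fold to 1.12-fold.

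Dagla had the largest differences among the 7, in opposite directions. In midbrain it was -0.43 (95% interval -1.04 to 0.17, adjusted p = 0.838 by edgeR), the libraries overlapping because wild-type replicate 3 held 62.9 CPM. In hindbrain it was 0.32 (-0.06 to 0.70, adjusted p = 0.875 by edgeR), with Fmr1CRE replicate 3 at 24.2 CPM inside the wild-type range of 22.9 to 25.8. The interaction test gave Dagla an adjusted p of 0.673 by edgeR, and the forebrain difference was -0.09 (-0.43 to 0.24).

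The Faah log2 fold change was 0.23 in forebrain (95% interval -0.13 to 0.59), -0.24 in midbrain (-0.57 to 0.08) and -0.18 in hindbrain (-0.46 to 0.10), none of which passed the test. Its interaction had an adjusted p of 0.674 by edgeR. Its forebrain value followed Fmr1CRE replicate 1 at 90.9 CPM, the other libraries lying between 61.1 and 70.7. That library was also the lowest in forebrain for Cnr1 (111.9 CPM), Dagla (75.3 CPM) and the forebrain markers (4.84 in mean log2 CPM). For the cholecystokinin interneuron list it was at 5.78, the other forebrain libraries lying between 6.46 and 6.57. The part of dissection in these values was not tested. Among the other members, Mgll differed by 0.11, 0.14 and 0.03 in forebrain, midbrain and hindbrain, Daglb by 0.06, 0.02 and 0.07, Napepld by -0.05, 0.17 and 0.02, and Abhd6 by 0.12, 0.11 and -0.03. For scale, the median absolute log2 fold change over all genes tested was 0.16, 0.13 and 0.16.

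Genotype groups without overlap in CPM were found for 1 gene in 1 region. In midbrain the Abhd6 libraries were 36.2, 40.4 and 35.4 CPM in Fmr1CRE and 34.7, 34.6 and 34.3 in wild type, so all 3 Fmr1CRE libraries were higher. That is 1 of 7 genes in midbrain, 14.3%, against 11.4% of all genes tested there, and 0 of 7 in forebrain and hindbrain against 10.2% and 10.7%. The Abhd6 log2 fold change in midbrain was 0.11 (95% interval -0.10 to 0.32, adjusted p = 0.876 by edgeR). Without the forebrain libraries numbered 3, 0 of the 7 genes were called between genotypes in forebrain.

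**Figure D5:**
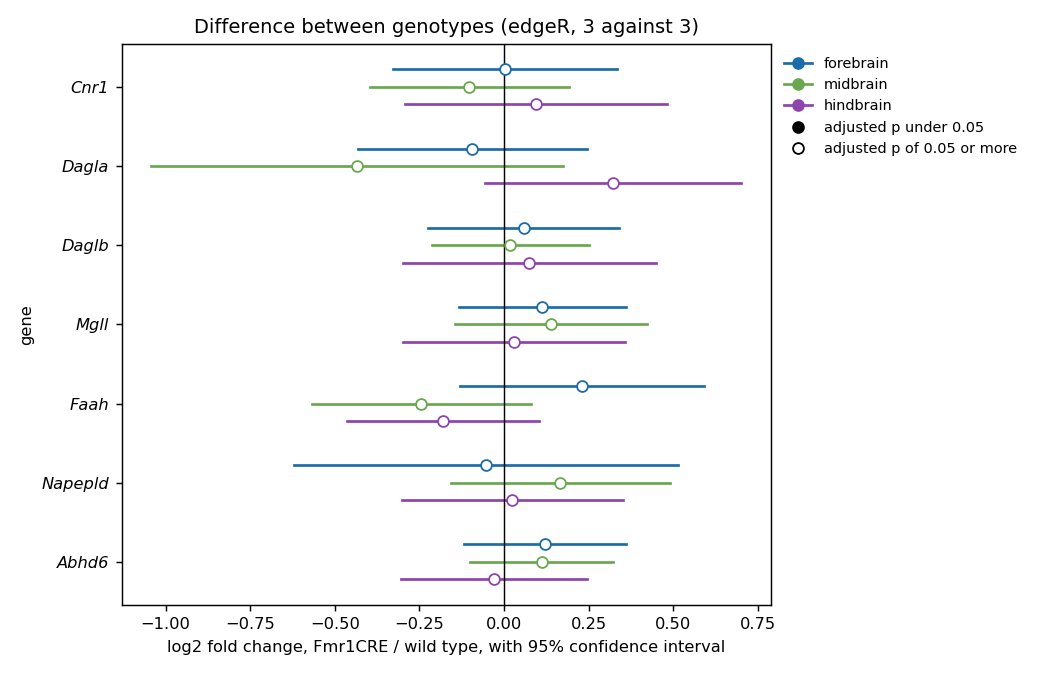
Log2 fold change of Fmr1CRE over wild type (horizontal axis) with its 95% interval from edgeR, 3 libraries against 3, for each gene and region. Every interval includes 0, and Dagla in midbrain has the widest, from -1.04 to 0.17.

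The same 4 ratios were compared between genotypes by an exact permutation test of 3 libraries against 3, two-sided, which cannot go below 0.1. Of the 12 tests 2 reached 0.1 (adjusted p = 0.4 for both). In hindbrain the log2 ratio of Dagla to Mgll averaged -1.84 in Fmr1CRE and -2.13 in wild type. In midbrain the log2 ratio of Napepld to Faah averaged -1.88 in Fmr1CRE and -2.28 in wild type. The midbrain difference in the ratio of Dagla to Mgll was -0.54 (exact p = 0.2), opposite in sign to hindbrain.

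Around the 7 genes, 29 other genes of the pathway were followed as 4 groups: receptors and their partners, other synthesis genes, other breakdown genes and lipid carriers, and the Gq-coupled receptors and G proteins upstream. In forebrain against hindbrain 14 of the 28 tested were higher and 6 lower in forebrain, in midbrain against hindbrain 11 were higher and 5 lower in midbrain, and in forebrain against midbrain 2 were higher and 4 lower. Over all genes tested, 26.4% were higher and 25.3% lower in the first of these comparisons, 25.1% and 24% in the second and 9.38% and 9.96% in the third, and several of the counts by group below are near those shares. Without the forebrain libraries numbered 3, 13 were higher and 7 lower against hindbrain, and 1 higher and 4 lower against midbrain. Of the 6 upstream genes, 5 were higher and 1 lower in forebrain against hindbrain, 6 were higher in midbrain against hindbrain, and 0 were higher and 1 lower in forebrain against midbrain, the same counts holding for forebrain without that pair. Their median against hindbrain was, for forebrain and midbrain, a log2 fold change of 1.42 and 1.43, beside -0.01 and -0.03 over all genes. The muscarinic receptors Chrm1 (6.54 ± 0.32, adjusted p = 1.14e-10) and Chrm3 (2.34 ± 0.13, adjusted p = 5.23e-10) had the largest forebrain over hindbrain log2 fold changes of these 6 genes by edgeR. In midbrain over hindbrain they were 6.26 and 2.21.

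Of the receptors and partners, 2 of 5 tested were higher in forebrain than in hindbrain, Pparg, a nuclear receptor (0.91 ± 0.35, adjusted p = 0.0372 by edgeR, at 1.95 to 4.18 CPM in forebrain), and Cnrip1, which binds the tail of the CB1 receptor (0.54 ± 0.08, 2.89e-05). Cnrip1 was 48.3 to 60.6 CPM in forebrain, 50.7 to 59.8 in midbrain and 31.1 to 40.6 in hindbrain, and higher in midbrain than in hindbrain too (0.53). The Pparg call was lost without the forebrain libraries numbered 3 (adjusted p = 0.0530 by edgeR), which left 1 of 5.

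Of 11 other synthesis genes, 4 were higher and 3 lower in forebrain than in hindbrain, 0 and 3 against midbrain, and 3 and 2 in midbrain against hindbrain. Without the forebrain libraries numbered 3 the first count became 4 and 4 and the second stayed 0 and 3. Those with the largest fold changes were the phosphatases Ptpn22 (-3.46 in forebrain against hindbrain, -2.09 against midbrain and -1.38 in midbrain against hindbrain) and Inpp5d (2.01 in forebrain against hindbrain and 1.33 in midbrain against hindbrain). Both are better known from immune cells, Inpp5d being a gene of microglia. Ptpn22 ran from 0.20 to 13.8 CPM over the 18 libraries, and Inpp5d from 15.03 to 23.1 in forebrain and 2.54 to 7.77 in hindbrain. Plcb4, a phospholipase C that makes the diacylglycerol used by the lipases, was lower in forebrain than in midbrain (-0.89 ± 0.14, adjusted p = 0.000309 by edgeR).

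Of 6 other breakdown genes and carriers, 3 were higher and 2 lower in forebrain than in hindbrain, 2 and 0 against midbrain, and 1 and 3 in midbrain against hindbrain. Ptgs2, the inducible cyclooxygenase that also oxidises endocannabinoids and is itself an activity-induced gene, was 5.60 to 8.63 CPM in forebrain, 4.48 to 10.8 in midbrain and 0.451 to 0.763 in hindbrain (log2 fold change against hindbrain 3.44 and 3.45). The carrier Fabp7, a marker of radial glia and astrocytes, was lower than in hindbrain by -0.71 in forebrain and -0.72 in midbrain. Against midbrain, forebrain was higher for Fabp3 (0.35 ± 0.07, adjusted p = 0.00357 by edgeR) and for Naaa (0.32 ± 0.10, 0.0417), an acid amidase for N-acylethanolamines. The Naaa call was lost without the forebrain libraries numbered 3 (0.25, adjusted p = 0.143 by edgeR), which left 1 gene higher, and the counts against hindbrain stayed 3 and 2.

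Between genotypes 0 of these genes were called by edgeR, of 27 tested in each region, 29 with the regions summed and 28 for the interaction, and 0 of 28 in forebrain without the libraries numbered 3. At an unadjusted p under 0.05 there were 2 in forebrain, 1 in midbrain, 3 in hindbrain and 1 with the regions summed. Over all genes tested, 5.43%, 6.17%, 5.13% and 3.70% were under 0.05 in the same order, and these few genes are too few to read against those shares. The smallest p in forebrain belonged to Naaa (log2 fold change -0.45, adjusted p = 0.806 by edgeR), in midbrain to Ppara, the fatty acid receptor (1.07, adjusted p = 0.806), and in hindbrain to Plcb1, a phospholipase C (0.25, adjusted p = 0.875). Ppara also had the smallest p with the regions summed (0.61, adjusted p = 0.998 by edgeR), and Naaa for the interaction (adjusted p = 0.663).

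How much of the variation lay between regions separated the 7 genes. Regions took 95.7% of the sum of squares of log2 CPM for Mgll, 88.4% for Faah, 87.3% for Dagla and 75.0% for Daglb, but 47.4% for Napepld, 43.8% for Cnr1 and 29.5% for Abhd6. Within groups, Dagla had the largest SD, 0.31 in log2 CPM, and Abhd6 the smallest, 0.09. Over the 18 libraries Dagla and Faah had a Pearson correlation of 0.916 and Dagla and Daglb of 0.893. The points are 3 regions of 6 mice, so these values mostly restate the regional order. After removal of the group means, the highest value among all pairs of the 7 genes was 0.803, for Daglb and Mgll. The lowest was -0.553, for Cnr1 and Napepld. These are the extremes of all pairs and were not tested, and the Daglb values may hold Rac1 reads.

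The genes whose log2 CPM followed each member most closely over the 18 libraries, by Pearson correlation among 20320 genes, were picked as a description. For Cnr1 they were Itpr1 (0.868), a calcium-release channel, Ablim1 (0.828) and Tgfbr3 (0.820). Dagla was followed by Srcin1 (0.992), Camta2 (0.991) and Fbxo41 (0.990), Daglb by Grm2 (0.929), Rtn4rl1 (0.922) and Usp2 (0.922), and Mgll by Selenow (0.981), C130074G19Rik (0.972) and Ttl (0.967). For Faah they were Bcl11a (0.967), Ntn5 (0.966) and Csmd1 (0.964), for Napepld Ano5 (0.917), Vav3 (0.865) and Shox2 (0.865), and for Abhd6 Atp2c1 (0.863), Ralgapa1 (0.831) and Tmem68 (0.805). The closest matches of Cnr1, Napepld and Abhd6 were weaker than those of the genes with a large regional range.

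The transcript estimates, pooled over the 18 libraries because their records could not be matched to samples, showed which transcripts carried the reads. Of the Cnr1 reads, 63.6% were assigned to the coding transcript that starts at base 33926202 of chromosome 4 (55.4% to 74.2% over the 18 files) and 36.2% to the coding transcript that starts at 33924632 (25.4% to 44.4%). The first of these starts lies at the end of the last Cnr1 stretch printed above, whose whole window held 5 CpG dinucleotides. The second lies in the window with 33 CpG dinucleotides, which is not printed. Faah was unusual in that 56.2% of its reads (35.98% to 69.6%) fell on its only coding transcript, the rest being assigned to retained-intron and other non-coding transcripts. The coding share was 87.7% for Dagla, where a transcript subject to nonsense-mediated decay took 11.8% (0% to 44.4%), 94.5% for Daglb, 94.7% for Mgll and 100% for Napepld and Abhd6. The ranges span regions and mice as well as the error of the assignment, which was not tested.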

How the data were processed

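Poly(A) RNA from 3 brain regions of 6 mice was sequenced as single-end reads in 18 libraries, prepared in 2 pools whose members were not named, so pool and group cannot be told apart. The submitters' processing notes name the build mm10, Salmon 0.14.0 and DESeq2 1.30.1, and the authors' methods the bcbio_nextgen pipeline; the strand setting of counting is not given in the sources used here. The deposited gene table holds whole-number counts, which were used as deposited; all 18 columns were matched to samples by title. The deposited transcript files hold estimated counts and effective lengths. Only 2 of the 18 carried the name of their own sample record, so they were used pooled. The deposited table of variance-stabilised values was not used.

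Counts were tested with edgeR 4.0.16 (quasi-likelihood, TMM scaling, default filter on low counts, Benjamini-Hochberg adjustment over all genes tested, threshold 0.05) in R 4.3.3. Genotypes were compared within each region and with the regions of a mouse summed; regions were compared on 6 group means. CPM used TMM library sizes over all 18 libraries, and correlations a prior count of 2. Alternatives were DESeq2 1.42.0, other scalings and filters, replicate blocks, 1 genotype alone and libraries left out. The edgeR and DESeq2 calls were tested on counts simulated for the genotype comparison in forebrain, not for the other comparisons. Gene positions are from GENCODE on GRCm38.

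Mouse identity pairs the regions. Deviations from group means correlated at -0.17 to 0.18 between forebrain and hindbrain of a mouse, -0.08 to 0.08 between forebrain and midbrain and 0.01 to 0.12 between midbrain and hindbrain. Replicate numbers shared across genotypes are only numbers (-0.12 to 0.07).

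All 7 members were named. Of the 4 pathway lists, up to 2 called genes per list and comparison with the largest absolute log2 fold change were named, and without a call in a genotype comparison the 1 gene with the smallest p. A gene that this rule names is not reported here. The 3 genes most correlated with each member were named. The members and lists were chosen with earlier results of these data known.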

Additional observations from a re-analysis of the deposited data

Results flagged for a closer look

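For each of the 7 genes and 3 regions, the 6 libraries of a region were examined for 1 library far from the rest, by Dixon's ratio of the gap to the range. Chance flags about 1 in 20 groups, and 3 of 21 were flagged here. Faah in forebrain was 90.9 CPM in Fmr1CRE replicate 1, where the other 5 libraries ran from 61.1 to 70.7. Napepld in midbrain was 20.1 CPM in Fmr1CRE replicate 1, above the others at 14.2 to 16.1. Abhd6 in midbrain was 40.4 CPM in Fmr1CRE replicate 2, the others running from 34.3 to 36.2. All 3 were the highest library of their region and came from Fmr1CRE mice, and 2 of the 3 from the mouse numbered 1.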

How the results depend on the processing

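None of the 7 genes was called between genotypes under any alternative run. Of 462 alternative values of members between genotypes, 428 kept their direction and side of the threshold and 34 turned sign without a call. Of 308 between regions, 270 kept both, 24 lost and 4 gained a call and 10 turned sign. The forebrain or midbrain over hindbrain calls of Dagla, Mgll and Faah held under all of them. The cause of the changes below was not tested, except that fewer mice bound the exact tests.

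Counts of genes called between genotypes over the whole table moved most. DESeq2 gave 31 in forebrain, 62 in midbrain, 60 in hindbrain, 29 with regions summed and 51 for the interaction. Without a filter on low counts there were 11 in midbrain, 11 in hindbrain, 4 with regions summed and 7 for the interaction, and with at least 10 counts in every library 0 in midbrain. A single fit of all 18 libraries gave 1 in forebrain, 0 in midbrain and 1 in hindbrain. Leaving out 1 mouse gave 0 to 4 in midbrain, 0 to 5 in hindbrain, 0 to 0 with regions summed and 0 to 4 for the interaction. Without both forebrain libraries numbered 3 the interaction gave 4, and without both mice numbered 3 the summed regions gave 0.

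Between regions, Fmr1CRE libraries alone gave 6178 genes in forebrain against hindbrain, 527 in forebrain against midbrain (members 1) and 4847 in midbrain against hindbrain (members 3), and wild-type libraries alone 1729 in forebrain against midbrain (members 1). With 1 mouse left out, forebrain against midbrain gave 2258 to 4001 genes and 1 to 2 members. The ratio tests between regions fell to 0 to 0 with 1 mouse left out and to 0 without both mice numbered 3, where 5 or 4 mice cannot reach the threshold.

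With the replicate number as a block, 0 genes were called with regions summed, and Cnr1 turned to -0.0100 in forebrain and -0.0014 summed. The mouse as the replicate block changed only the Cnr1 call between forebrain and midbrain (-0.36). Values of uncalled members that turned sign were, for Cnr1 in forebrain, -0.0043 without a filter, -0.026 in 1 fit and -0.058 without both forebrain libraries numbered 3, and for summed Cnr1 -0.0016 with DESeq2 or its size factors, -0.0091 without a filter and -0.041 without both mice numbered 3. Forebrain Dagla became 0.037 without both libraries numbered 3, and the forebrain ratio of Mgll to Abhd6 0.114. With total counts alone Abhd6 became -0.013 in forebrain against hindbrain and -0.015 in midbrain against hindbrain. In wild type alone Napepld was 0.025 in forebrain against hindbrain, Dagla -0.023 and Faah -0.14 in forebrain against midbrain and Abhd6 -0.015 in midbrain against hindbrain. With 1 mouse or library left out, these uncalled values crossed 0. In forebrain between genotypes, Cnr1 ran from -0.11 to 0.13, Dagla from -0.19 to 0.045, Daglb from -0.026 to 0.12, Napepld from -0.21 to 0.18 and the ratio of Mgll to Abhd6 from -0.062 to 0.063. In midbrain, Cnr1 ran from -0.22 to 0.010, Daglb from -0.042 to 0.068 and that ratio from -0.037 to 0.077. In hindbrain, Daglb ran from -0.042 to 0.17, Mgll from -0.095 to 0.14, Napepld from -0.030 to 0.089, Abhd6 from -0.096 to 0.062 and that ratio from -0.12 to 0.16. With regions summed, Cnr1 ran from -0.038 to 0.053, Faah from -0.080 to 0.040 and Napepld from -0.0057 to 0.15. Between regions, Napepld ran from -0.15 to 0.14 in forebrain against hindbrain, and Dagla from -0.059 to 0.26 and Faah from -0.060 to 0.15 in forebrain against midbrain.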
